A study of Mus musculus with 2 samples.

Results

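Broad Hdac1 islands are the widest stretches of the genome at which chromatin immunoprecipitation with an antibody against Hdac1 gave more reads than background in mouse nephron progenitor cells. They were chosen by width alone, 5 kb or more on chromosomes 1 to 19, and there were 1377 of them among 29695 Hdac1 islands on those chromosomes and 30182 in all. Wild-type mouse embryos at E16.5 were the source of the kidney cells, which were grown in culture and then fixed with formaldehyde. Hdac1 was precipitated in 1 library and Hdac2 in 1 other, with 0.5 µg and 1 µg of antibody as the names of the deposited lists give it, so target, antibody and amount changed together. Control precipitations with IgG and against H3K4me3 were not analysed here. Neither antibody had a replicate, no test between the libraries could be made, and the 95% Wilson intervals of shares cover counting error only; islands of 1 library share their source. Binding in more of the cells and stronger binding per cell cannot be told apart in such libraries, and islands do not measure expression, so the labelled cell type was not checked with them.

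Hdac1 and Hdac2 are class I histone deacetylases. They remove acetyl groups from histone tails and work as catalytic subunits of the Sin3, NuRD, CoREST and MiDAC complexes, which are brought to DNA by other proteins. Nephron progenitors are the self-renewing mesenchymal cells of the fetal kidney from which the epithelial tubules of each nephron form, and they depend on regulators such as Six2, Sall1, Wt1, Pax2, Osr1 and Eya1 and on Fgf signalling.

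The islands fell into 4 classes by the protein-coding genes with which they shared at least 1 bp. A gene of the developmental transcription factor or signalling families lay under 159 islands (11.5%), another named gene under 996 (72.3%), genes with provisional symbols only, such as Gm and Rik names, under 17 (1.23%), and no protein-coding gene under 205 (14.9%). Among the 28318 narrower islands the same classes held 3.41%, 64.9%, 1.41% and 30.3%. The 95% Wilson interval of the developmental share was 9.96% to 13.3% in broad and 3.21% to 3.63% in narrower islands, and that of the gene-free share 13.1% to 16.9% and 29.8% to 30.8%. A wider island has more bases with which to touch a gene, and developmental genes took precedence, so width alone moves these shares and they are a description.

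Promoter sequences of 4 genes under broad islands are shown because they stand for the first and second classes. Each runs from 250 bases before to 50 after a transcription start listed by RefSeq (GRCm38.p6, the assembly of mm10), with every CG dinucleotide in capitals. Hoxb4 (chr11:96318017-96318316, plus strand) lay inside the widest island of all, Six2 (chr17:85688205-85688504, minus strand) and Spry1 (chr3:37639697-37639996, plus strand) under single-gene islands, and Midn (chr10:80148022-80148321, plus strand) under one of the widest islands of the second class.
Hoxb4: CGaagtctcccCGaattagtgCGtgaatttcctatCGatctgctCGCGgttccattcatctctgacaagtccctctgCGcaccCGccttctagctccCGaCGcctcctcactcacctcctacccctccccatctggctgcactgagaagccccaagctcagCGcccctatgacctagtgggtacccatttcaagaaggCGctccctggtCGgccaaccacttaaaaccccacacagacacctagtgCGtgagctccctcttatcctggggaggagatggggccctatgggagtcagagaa
Six2: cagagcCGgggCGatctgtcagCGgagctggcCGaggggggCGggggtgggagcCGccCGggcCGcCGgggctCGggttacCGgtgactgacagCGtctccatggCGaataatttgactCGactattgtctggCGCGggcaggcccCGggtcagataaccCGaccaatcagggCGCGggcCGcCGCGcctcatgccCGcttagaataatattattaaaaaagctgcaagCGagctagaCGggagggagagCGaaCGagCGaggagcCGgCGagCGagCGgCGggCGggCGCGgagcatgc
Spry1: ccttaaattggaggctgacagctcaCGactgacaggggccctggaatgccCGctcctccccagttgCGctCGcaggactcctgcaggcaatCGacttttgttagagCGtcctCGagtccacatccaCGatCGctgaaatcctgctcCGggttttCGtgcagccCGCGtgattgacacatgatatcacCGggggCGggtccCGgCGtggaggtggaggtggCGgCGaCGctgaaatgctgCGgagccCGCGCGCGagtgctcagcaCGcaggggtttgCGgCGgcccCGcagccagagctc
Midn: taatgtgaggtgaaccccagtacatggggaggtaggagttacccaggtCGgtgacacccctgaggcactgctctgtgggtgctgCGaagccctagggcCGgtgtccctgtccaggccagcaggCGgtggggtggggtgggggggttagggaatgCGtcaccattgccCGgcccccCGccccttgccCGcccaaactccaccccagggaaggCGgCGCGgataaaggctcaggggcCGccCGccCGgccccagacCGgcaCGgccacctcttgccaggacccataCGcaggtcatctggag
The Six2 stretch held 37 CG dinucleotides, Spry1 29, Midn 17 and Hoxb4 14 in 300 bases. The ratio of observed to expected CG was 1.13 for Six2, 0.935 for Spry1, 0.593 for Hoxb4 and 0.486 for Midn, so these 4 stretches were not all rich in CG. Midn had 2 listed starts in its island, of which the most upstream is shown.

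A second pair of promoters is shown for the islands over repeated gene copies. Gm13283 (chr4:88760524-88760823) and Gm13272 (chr4:88779600-88779899), both on the plus strand and 19.1 kb apart, lay under neighbouring broad islands of 9.6 and 12.4 kb. Capitals mark the bases at which they differ.
Gm13283: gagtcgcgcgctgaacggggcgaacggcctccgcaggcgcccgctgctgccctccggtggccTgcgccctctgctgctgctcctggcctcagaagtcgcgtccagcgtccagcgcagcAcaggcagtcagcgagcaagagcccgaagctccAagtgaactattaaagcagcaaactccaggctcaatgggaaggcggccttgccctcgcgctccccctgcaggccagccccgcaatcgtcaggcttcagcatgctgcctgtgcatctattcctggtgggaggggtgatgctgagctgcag
Gm13272: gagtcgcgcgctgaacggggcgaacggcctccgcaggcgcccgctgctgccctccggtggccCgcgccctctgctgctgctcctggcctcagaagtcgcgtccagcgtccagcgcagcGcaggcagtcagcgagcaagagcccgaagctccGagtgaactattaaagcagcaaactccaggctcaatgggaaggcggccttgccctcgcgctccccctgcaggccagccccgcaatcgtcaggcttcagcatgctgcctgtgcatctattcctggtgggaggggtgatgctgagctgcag
Of 300 aligned bases 297 were identical and 3 were substituted (99% identity). A read from such a stretch may map to several copies, and the sources used here do not say how the authors placed reads with more than 1 match.

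Most broad islands were only a little wider than the limit. The median width was 6.0 kb (interquartile range 5.4 to 7.2 kb), 699 were 6 kb or wider, 233 were 8 kb or wider, 96 were 10 kb or wider and 20 were 20 kb or wider, up to 89.4 kb. Another Hdac1 island lay within 5 kb of 43.5% of the broad islands, against 26.1% of narrower ones. Exactly 5.0 kb wide were 179 islands and 4.8 kb wide 224, so the limit cuts through a continuous run of widths, with Pou2f1, Vgf and Erf just inside it and Tfap4, Srsf2 and Jun just outside. Broad islands covered 9.89 Mb of the 67.9 Mb under Hdac1 islands (14.6%). The authors' value, a p-value or a q-value, had a median of 1.74e-76 in broad and 1.24e-15 in narrower islands. Of the 80 islands listed at 0, 55 were broad and 25 narrower. How far the value follows width was not tested, so these values are a description only. The share of broad islands among all Hdac1 islands of a chromosome ran between 3.29% on chromosome 16 and 5.93% on chromosome 10.

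**Figure D1:**
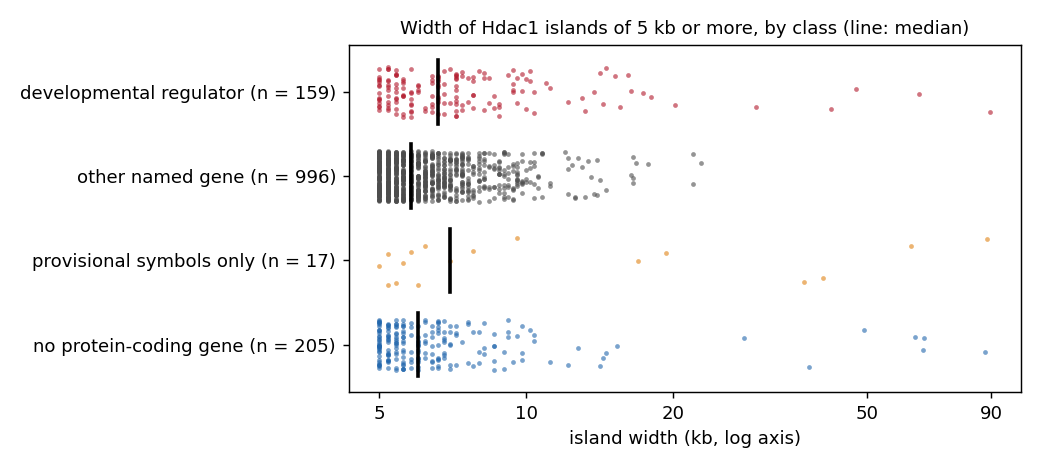
Width of each of the 1377 broad Hdac1 islands (points, kb, log axis) in the 4 classes, with the median as a black line. Medians lie between 5.8 and 7.0 kb, and islands over 40 kb occur over developmental regulators, over provisional symbols and in gene-free sequence, while the widest island of the second class is 22.8 kb.

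The widest developmental islands lay over the Hox clusters, runs of homeobox genes that set position along the body axis and of which the paralogs Hoxa11, Hoxc11 and Hoxd11 act in the early kidney. The Hoxb island (chr11:96268001-96357400, 89.4 kb) spanned Hoxb9 to Hoxb2. The Hoxc island (chr15:102952001-103016000, 64.0 kb) spanned Hoxc11 to Hoxc5. The Hoxa island (chr6:52202601-52250000, 47.4 kb) ran across Hoxa5 to Hoxa11 and part of Hoxa3, and the Hoxd island (chr2:74674801-74717000, 42.2 kb) across Hoxd12 to Hoxd8 and part of Hoxd3. All 4 were listed at 0 for Hdac1. In all, 33 of 39 Hox genes lay under 13 broad islands, against 6.32% of the 20661 protein-coding genes on these chromosomes (1305 genes).

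Beyond these stretches the Hdac1 islands were shorter. Hoxa3 had one of 12.2 kb and Hoxa4 one of 5.2 kb. There were 6 Hox genes with no broad island, among them Hoxa13, Hoxb1, Hoxc12, Hoxc13 and Hoxd1. Hoxd13, the most 5′ gene of its cluster, had a separate island of 7.4 kb with no Hdac2 overlap. In the Hdac2 library each of these long stretches was broken into several islands. There were 11 within the Hoxb island (2.2 to 13.6 kb wide), 7 within the Hoxc island (up to 14.6 kb), 7 within the Hoxa island (up to 9.2 kb) and 5 at the Hoxd island (up to 14.0 kb). Together they covered 76.3%, 73.4%, 85.7% and 85.8% of the Hoxb, Hoxc, Hoxa and Hoxd islands. The lowest Hdac2 value at each was 3.65e-43 for Hoxb, 3.34e-24 for Hoxc, 4.90e-26 for Hoxa and 2.25e-73 for Hoxd. Some breaks between Hdac2 islands were short, as from 11.2 to 12 kb after the start of the Hoxa island. Others were longer, as from 44.6 to 49.4 kb after the start of the Hoxb island. The smallest gap found in the lists was 800 bp, and how island calling shaped these breaks was not tested.

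**Figure D2:**
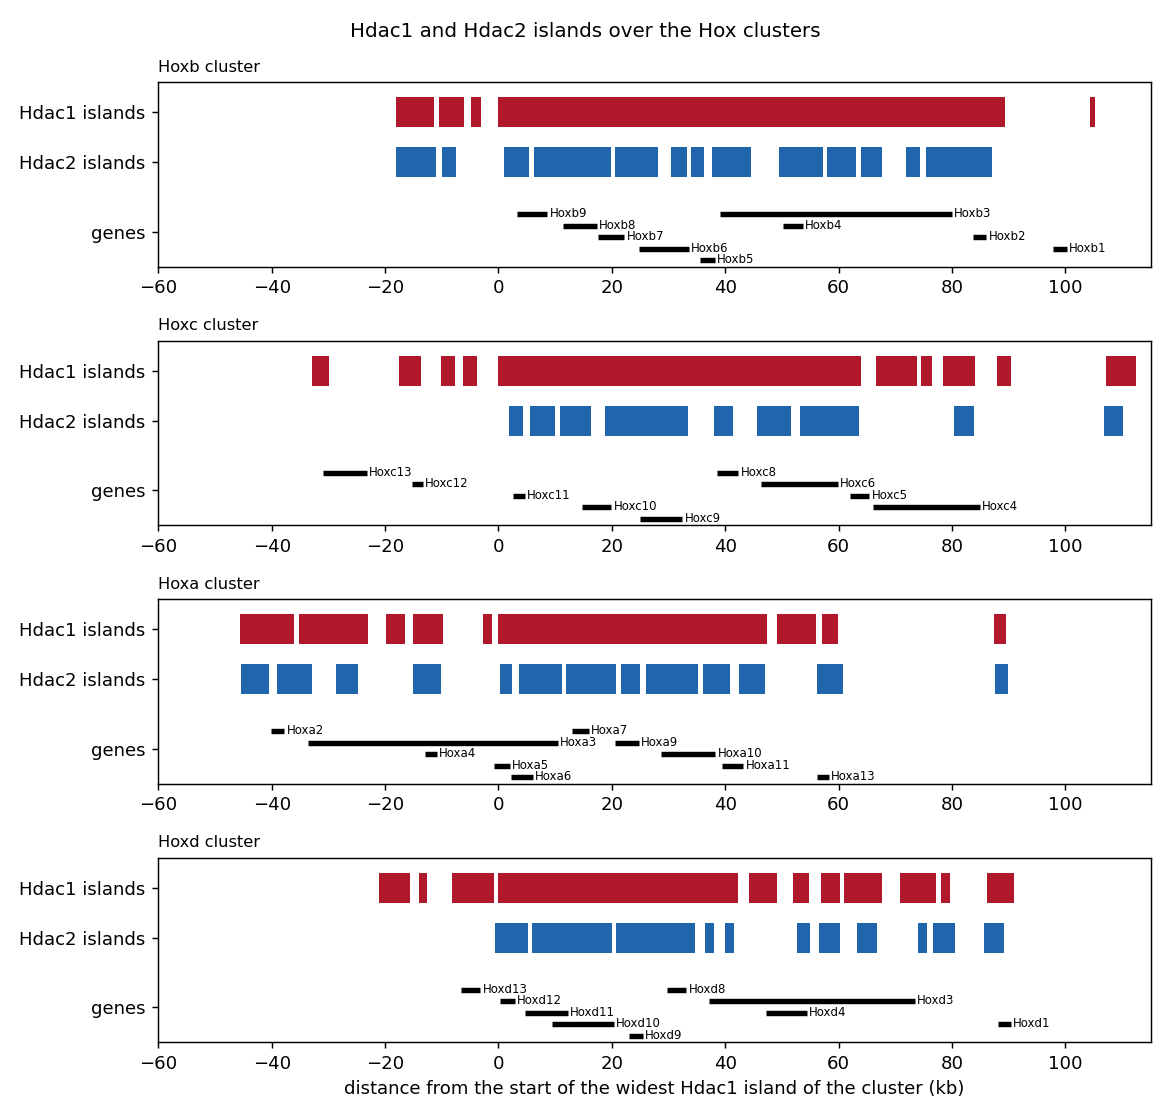
Hdac1 islands (red) and Hdac2 islands (blue) over the 4 Hox clusters, with Hox genes as black bars; the horizontal axis is the distance in kb from the start of the widest Hdac1 island of the cluster. Each cluster has 1 Hdac1 island of 42.2 to 89.4 kb at its centre, and over the same stretch 5 to 11 separate Hdac2 islands.

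The Hox islands also held miRNA genes. Their mature sequences (RefSeq, GRCm38.p6) are given because miRNAs of different clusters share a seed, bases 2 to 8, shown in capitals. They were chosen after the values were seen. Mir10a lay in the Hoxb island (mature chr11:96317186-96317208, plus strand), Mir196a-2 in the Hoxc island (chr15:102973365-102973386, plus strand) and Mir196b in the Hoxa island (chr6:52230129-52230150, minus strand). A pair with another shared seed lay under broad islands elsewhere, Mir125b-1 in a gene-free island of 6.2 kb within the long noncoding gene Mir100hg (chr9:41581940-41581961, plus strand) and Mir125a under the 6.2 kb island of Spaca6 (chr17:17830817-17830840, plus strand).
miR-10a-5p: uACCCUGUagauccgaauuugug
miR-196a-5p: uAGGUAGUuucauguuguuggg
miR-196b-5p: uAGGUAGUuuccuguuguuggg
miR-125b-5p: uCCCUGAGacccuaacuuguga
miR-125a-5p: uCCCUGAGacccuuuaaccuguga
The seed of miR-196a-5p and miR-196b-5p was AGGUAGU and that of miR-125a-5p and miR-125b-5p CCCUGAG. In all, 35 of 919 miRNA hairpins (3.81%) shared bases with a broad island, in 30 islands.

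Outside the Hox clusters the widest developmental island covered Nr2f2, an orphan nuclear receptor gene of mesenchyme (chr7:70342201-70371800, 29.6 kb, listed at 0, with 5 Hdac2 islands over 76.4%). Spry1, an inhibitor of receptor tyrosine kinase signalling that restrains Gdnf and Ret in the kidney, had an island of 20.2 kb (chr3:37638601-37658800, listed at 0), with 4 Hdac2 islands over 69.3%. Six2, which keeps nephron progenitors undifferentiated, had a single Hdac2 island over 97.7% of its Hdac1 island of 17.4 kb (chr17:85679401-85696800). Sall1, a zinc finger gene needed for the progenitor pool, had 2 broad islands. The first, of 16.4 kb (chr8:89033401-89049800), was listed at 0 and was covered by Hdac2 over 73.2%. The second, of 10 kb (chr8:89020201-89030200), had a value of 7.70e-36 and Hdac2 over 44.0%. Foxc1 (16.2 kb), Meis1 (14.6 kb), Meis2 (14.4 kb), Eya1 (13.8 kb) and Foxp1 (11 kb) were also listed at 0, and Hdac2 islands covered 37.7% of the island at Eya1, a cofactor of Six2, and 82.7% of that at Foxc1, a forkhead gene.

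Of the lists of kidney genes, the nephron progenitor list had 17 of 31 genes under broad islands (54.8%, interval 37.8% to 70.8%). Over all protein-coding genes the share was 6.32%. Uncx (15.6 kb), Pax2 (15.2 kb, a paired-box regulator of the whole kidney), Wt1 (13.0 kb, the zinc finger gene of Wilms tumour), Gas1 (10.4 kb), Gdnf (9.8 kb, the ligand that draws out the ureteric bud), Tmem100 (9.2 kb), Cited2 (8.8 kb), Osr1 (8.0 kb), Fgf9 (7.8 kb, a survival factor of progenitors), Robo2 (7.2 kb) and Ncam1 (5.8 kb) joined Six2, Sall1, Eya1 and the 3 Hox genes of group 11. The progenitor genes Meox1, Itga8, Crym and Bmp7 had narrower Hdac1 islands only, and 30 of the 31 had an Hdac1 island of some width. All 17 had Hdac2 overlap, over 23.9% of the island at Tmem100 and over 97.7% at Six2. Of all broad islands 86.6% had such overlap.

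Broad islands were not confined to genes of the undifferentiated progenitor. Genes of committed nephron precursors had 11 of 28 under broad islands (39.3%, interval 23.6% to 57.6%), against 6.32% of all protein-coding genes. Among them were Hes1 (10.2 kb, listed at 0, a Notch effector), Notch2 (7.4 kb), Ccnd1 (6.8 kb), Sox9 (6.6 kb), Bmp2 (6.0 kb), Jag1 (5.4 kb, a Notch ligand), Hey1 (5.2 kb), Lef1 (5.0 kb, a target of canonical Wnt signalling) and Irx3 (5.0 kb), with Hdac2 over 53.8% to 96.0% of the island. Pou3f3 (5.4 kb) had no Hdac2. Wnt4, Lhx1, Pax8 and Fgf8, which mark the first steps to the renal vesicle, had narrower Hdac1 islands.

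The stromal list had 10 of 20 genes under broad islands (50%, interval 29.9% to 70.1%) and the ureteric bud list 7 of 20 (35.0%, 18.1% to 56.7%). Over all protein-coding genes the share was 6.32%. Stromal genes were Meis1, Meis2, Tcf21 (13.2 kb), Ebf2 (8.6 kb), Pdgfra (8.2 kb), Zeb2 (6.6 kb), Aldh1a2 (6.2 kb, a retinoic acid synthase), Fat4 (5.8 kb), Pdgfrb (5.0 kb) and Tbx18 (5.0 kb). Foxd1, the marker of cortical stroma, had a narrower island. The ureteric bud genes were Hoxb7 (within the Hoxb cluster island), Wnt7b (8.2 kb), Tfap2a (5.8 kb), Emx1 (5.6 kb), Gfra1 (5.4 kb), Gata2 (5.2 kb) and Etv4 (5.0 kb). The ureteric bud markers Ret, Wnt11, Wnt9b and Gata3 had narrower islands only, and Tfap2b and Krt8 had no Hdac1 island. Pdgfrb, Tbx18, Emx1 and Gata2 had no Hdac2 overlap. The 1 mature nephron gene of 16 was Synpo (6.4 kb), and the 2 endothelial genes of 15 were Erg and Fli1, both also transcription factor genes. None of 1452 protein-coding olfactory and vomeronasal receptor genes lay under a broad island (Wilson upper bound 0.264%), and none of 57 clustered protocadherin genes did (6.31%). Only 5 of these 1452 receptor genes had an Hdac1 island of any width, as had 35 of the 57 protocadherin genes. For the mature nephron list that count was 7 of 16, and for the endothelial and blood list 8 of 15. Some of these genes stand in more than 1 list, and the lists share islands, so their shares are not independent.

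**Figure D3:**
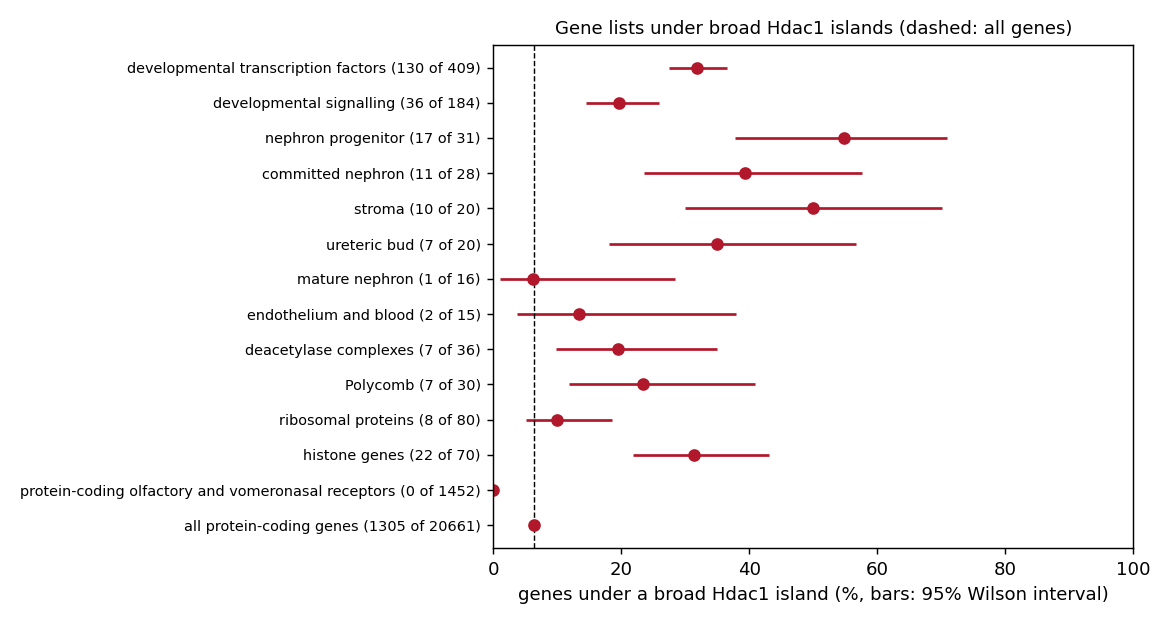
Share of the genes of each list that shared bases with a broad Hdac1 island (points, %), with 95% Wilson intervals (bars) and the counts in brackets; the dashed line is the share of all 20661 protein-coding genes, 6.32%. The nephron progenitor list lies at 54.8%, the stromal list at 50%, and the mature nephron list at 6.25%, next to the share of all genes.

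By family, 130 of 409 developmental transcription factor genes (31.8%) and 36 of 184 signalling genes (19.6%) lay under broad islands. The share of all protein-coding genes was 6.32%. Of the 593 transcription factor and signalling genes, 60 had no Hdac1 island of any width. Of the 159 islands, 122 lay over a transcription factor gene and 37 over a signalling gene. In the Fox family 8 of 41 genes and in the Sox family 6 of 18 lay under broad islands, against all 3 Spry and all 3 Tshz genes. In other families the counts were 1 of 14 Nkx, 1 of 14 Prdm, 0 of 10 Gdf and 0 of 8 Lhx genes, too small to set against the 6.32% of all genes. These families were picked after the values were seen. Ligands in the signalling class included Gdnf, Fgf9, Fgf1, Fgf11, Bmp2, Bmp4, Wnt5a, Wnt5b, Wnt7b, Wnt10a, Jag1 and Dll4. Receptors included Fzd1, Fzd2, Fzd4, Fzd7, Fgfr2, Gfra1, Notch2, Ptch1, Robo2, Epha4 and Ephb4, and secreted antagonists included Nog and Fst. The Ptch1 island (6.4 kb), over the receptor and target gene of Hedgehog signalling, was listed at 0. Ligand, receptor and antagonist genes outside the lists of kidney genes were chosen after the values were seen.

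Inhibitors that growth factor pathways switch on themselves were a further group, listed after the values were seen. Broad islands lay over 10 of 17 such genes, against 6.32% of all protein-coding genes. For the Fgf and Ret pathways these were Spry1, Spry2 (10.4 kb), Spry4 (8.6 kb), Spred1 (6.4 kb), Il17rd (16.6 kb) and the phosphatase genes Dusp4 (14.0 kb), Dusp5 (6.6 kb) and Dusp6 (10.8 kb), and for the Bmp and Tgf-beta pathways Smad6 (7.6 kb) and Smad7 (13.2 and 10.6 kb). Hdac2 islands covered 100% of the Dusp6 island, 92.9% of the wider one at Dusp4 and 94.7% of that at Smad6. Immediate early genes, also listed after the values were seen, had 14 of 20 under broad islands, against the same 6.32%, from Egr1 (10.8 kb) and Fos (9.2 kb) to Nr4a1 (5.0 kb); of these Nr4a1 had no Hdac2. Both lists were picked with the islands known, and their shares support nothing beyond the values given.

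All 36 genes of the deacetylase complexes had an Hdac1 island of some width, against 13966 of all 20661 protein-coding genes. Broad islands lay over 7 of the 36 (19.4%, interval 9.75% to 35.0%), against 6.32% of all protein-coding genes. Zmynd8 (10.4 kb), Chd3 (9.0 kb) and Chd4 (7.6 kb, like Chd3 a remodeller of NuRD), Mideas (8.0 kb, a MiDAC scaffold), Sin3a (6.4 kb, the Sin3 scaffold), Trerf1 (6.4 kb) and Phf21a (5.8 kb) were the 7. All had Hdac2 overlap, against 86.6% of all broad islands. Hdac1 and Hdac2 themselves had narrower islands. Of 30 Polycomb genes, all with an Hdac1 island of some width, 7 lay under broad islands (23.3%, 11.8% to 40.9%), against the same 6.32%. Among them were Jarid2 (9.0 kb), Bmi1 (7.6 kb), Phc2 (7.4 kb), Kdm2b (7.0 kb), Pcgf2 (7.0 kb) and Cbx8 (6.4 kb). Hdac2 covered the Jarid2 island over 84.4% and the Phc2 island over 5.41%.

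The second class, named genes outside the developmental families, held the largest number of islands, 996 in all and 46 of the 96 of 10 kb or more, but 3 of the 20 of 20 kb or more. Its lowest-valued islands, all listed at 0, lay over Fcgr3 (22.8 kb), Midn and Cirbp (22 kb), Bahcc1 (22 kb), Irf2bp2 (17.8 kb), Tnrc18 (16.6 kb), Zfp503 (14.6 kb), Kdm6b and Dnah2 (14.2 kb) and Dusp4. Kdm6b encodes a demethylase of H3K27. The Midn and Cirbp island (chr10:80147801-80169800) had 2 Hdac2 islands over 70.9%, and that of Bahcc1 (chr11:120222001-120244000), which encodes a chromatin reader, had 1 of 21 kb over 93.6%. Ribosomal protein genes had 8 of 80 under broad islands (10%, 5.15% to 18.5%, an interval that holds the 6.32% of all protein-coding genes) and histone genes 22 of 70 (31.4%, 21.8% to 43.0%), the histone genes on 8 islands of 5.2 to 9.8 kb. Histone genes of a kind occur in several copies. How alike these copies are, and whether reads were shared among them, was not measured here.

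Where a broad island held the listed start site of exactly 1 protein-coding gene, it could be placed on that gene's strand. In 615 such islands the island reached a median of 4.09 kb downstream of the start and 2.04 kb upstream, and 77.2% (73.8% to 80.4%) reached farther downstream, against 73.8% over broad and narrower islands together. Where a gene had several listed starts in an island, the most upstream was used, which lengthens the downstream side. Narrower islands (8020) reached 1.26 kb downstream and 0.773 kb upstream, with 73.6% (72.6% to 74.5%) farther downstream, and these intervals overlap. Among the broad islands the share was 71.3% over developmental regulators (61.0% to 79.7%, 87 islands) and 78.2% over other named genes (74.5% to 81.6%, 524 islands), whose intervals overlap too. The Fgf inhibitor gene Il17rd reached 14.8 kb downstream and 1.80 kb upstream, Gas1 8.73 and 1.67 kb, and Gdnf 7.95 and 1.85 kb. Cux1 reached 1.78 kb downstream and 4.82 kb upstream, and Bcl11b 1.41 and 3.99 kb. These 5 were chosen after the values were seen.

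Of 16456 protein-coding genes with a listed start site, 857 (5.21%) had it inside a broad island. On the 18 chromosomes with listed start sites, 726 of 1318 broad islands (97 of them with starts of 2 genes and 14 with starts of 3 or more) held at least 1. At 5 kb downstream of the start, 52.3% of the 107 developmental regulators with a start in a broad island were still inside an Hdac1 island, against 27.3% of the 750 other such genes and 4.1% of 9327 genes with narrower islands only. For Hdac2 the shares at that distance were 26.2%, 11.2% and 1.7%. At the start itself Hdac2 islands held 79.4%, 81.2% and 46.9% of these genes. Choosing wide islands fixes the Hdac1 curves in part, and the Hdac2 curves were not used to choose them. Whole genes lay inside some islands: 36 of the 159 developmental islands held 55 developmental genes from end to end.

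**Figure D4:**
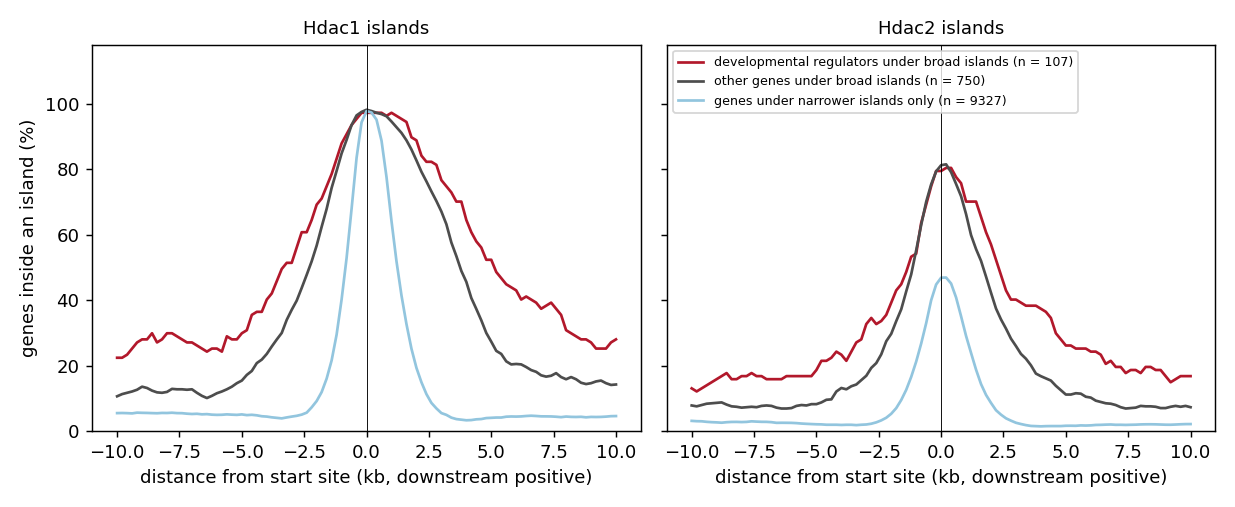
Share of genes (%) that lie inside an Hdac1 island (left) or an Hdac2 island (right) at each distance in kb from the transcription start, downstream positive, for 3 groups of genes. At 5 kb downstream the Hdac1 curve stands at 52.3% for developmental regulators and 27.3% for other genes under broad islands, and the Hdac2 curves at 26.2% and 11.2%.

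Promoters inside broad islands had a median ratio of observed to expected CG of 0.815 (interquartile range 0.642 to 0.951, 1063 promoters), close to 0.784 under narrower islands (11052 promoters) and above 0.196 at promoters with no Hdac1 island (7969). Within broad islands the median was 0.751 at developmental regulators, next to 0.754 at developmental regulators in narrower islands, and 0.822 at other genes, and within islands of 10 kb or more it was 0.735 (97 promoters). GGGCGG, the core of the Sp1 box, was found on either strand in 71.0% of promoters in broad islands, 46.4% in islands of 10 kb or more, 68.7% in narrower islands and 47.0% of all 20084 promoters. TATAAA was in 8.37%, 9.28%, 5.82% and 12.7% of the same 4 sets, CCAAT in 38.9%, 48.5%, 37.2% and 38.1%, and CACGTG in 10.5%, 8.25%, 10.3% and 7.89%. These are matches of letters in windows of 300 bases and not sites of binding. The 97 promoters in islands of 10 kb or more came from 81 genes, so some genes count more than once. Whether near-copies move these shares was not tested.

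Hdac2 islands, which the choice of members did not use, overlapped 1192 of the 1377 broad islands by at least 1 bp (86.6%, interval 84.7% to 88.3%), against 40.2% of all Hdac1 islands on these chromosomes and 38% of narrower ones. A wide island has more bases at which an overlap can occur. At least 50% of the bases were under Hdac2 in 57.2% of broad islands (54.5% to 59.7%), against 34.5% of all and 33.4% of narrower islands. The share with any overlap went up over the width bins, from 81.1% at 5 to 6 kb through 89.5% at 6 to 8 kb and 95.6% at 8 to 10 kb to 97.4% at 10 to 20 kb, and all 20 islands of 20 kb or more had Hdac2. Within deciles of the Hdac1 list ordered by value, broad islands had the higher share in each: 98.0% of 645 broad against 82.1% of narrower islands in the decile with the lowest values, and 69.2% of 39 against 17.2% in the decile with the highest. The median share of bases under Hdac2 was the other way round in the 2 deciles with the lowest values, 62.9% in broad against 70% in narrower islands and 51.6% against 55.6%. An Hdac2 island with both edges within 400 bp was seen at 3.78% of broad islands, against 11.2% of all Hdac1 islands and 11.5% of narrower ones.

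Hdac2 was found at 85.5% of islands in the developmental class (79.2% to 90.2%), at 87.2% over other named genes (85.0% to 89.2%) and at 85.4% in gene-free sequence (79.9% to 89.6%). It was found at 12 of the 17 islands with provisional symbols (70.6%, 46.9% to 86.7%), and all 4 intervals overlap. The 23 developmental islands without Hdac2 were 5.0 to 8.4 kb wide. The widest were at Nfic (8.4 kb), Hoxd13 (7.4 kb), Onecut2 (7.2 kb), Isl2 (7.2 kb) and Cyp26b1 (7.2 kb, which breaks down retinoic acid), with Hdac1 values between 1.97e-37 and 1.47e-21.

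Over all broad islands with Hdac2 the widest Hdac2 island was 0.547 times as wide as the Hdac1 island at the median in the developmental class and 0.562 times both over other named genes and in gene-free sequence. Within Hdac1 islands of 10 kb or more the classes stood further apart. Among the 27 developmental islands of 10 kb or more, all with Hdac2, none was wholly inside 1 Hdac2 island (Wilson upper bound 12.5%). The median number of Hdac2 islands in them was 2, and the widest of these was 0.449 times as wide as the Hdac1 island at the median. Among 44 islands of that size over other named genes with Hdac2 the ratio was 0.484, and 5 lay wholly inside 1 Hdac2 island. Among 6 islands over provisional symbols 5 lay wholly inside 1 Hdac2 island, with a median ratio of 1.06, and among 17 gene-free islands 7 did, with a ratio of 1.02. The 7 gene-free islands of 20 kb or more had Hdac2 over a median of 100% of their bases. Gene-free islands of 10 to 20 kb were mixed. The widest Hdac2 island was 4.0 kb at one of 14.6 kb and 4.4 kb at one of 12.8 kb, but 42.8 kb at one of 11.2 kb. Among all 17 the Hdac2 island was the wider at 9. Six2, with an Hdac2 island of 18.2 kb at its Hdac1 island of 17.4 kb, was the 1 developmental island of 10 kb or more at which the Hdac2 island was the wider. A gap of 800 bp, the smallest found in the lists, was enough to set Hdac2 islands apart.

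**Figure D5:**
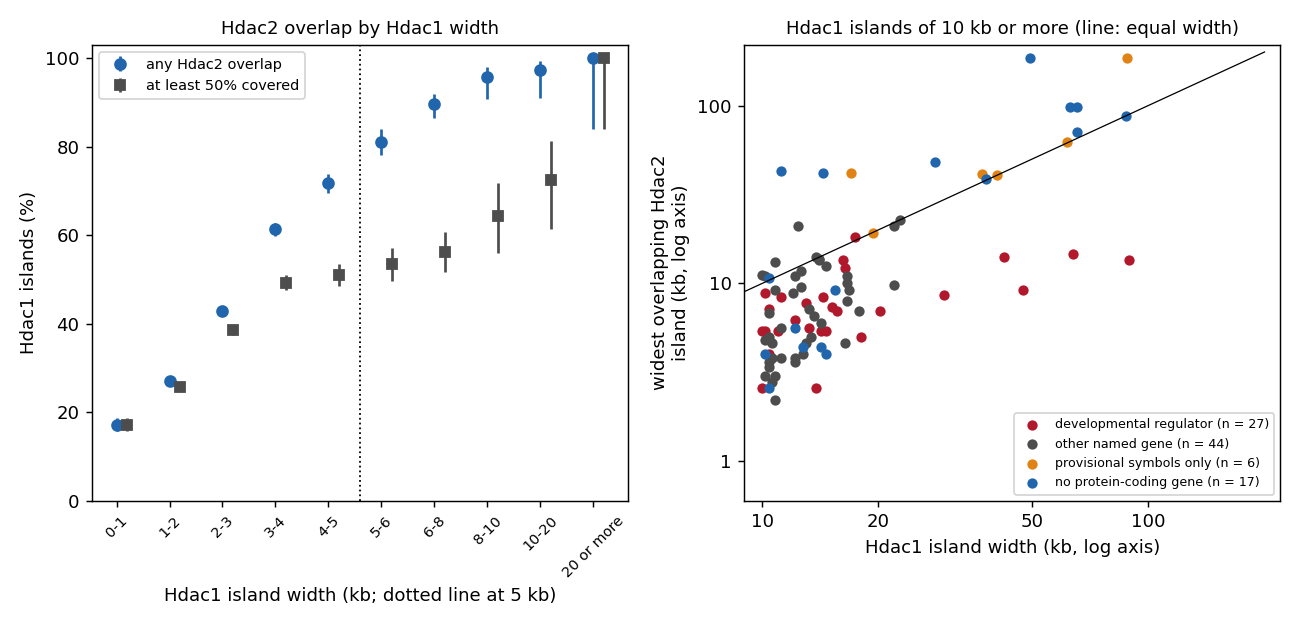
Left, share of Hdac1 islands (%) with any Hdac2 overlap (circles) and with at least 50% of bases under Hdac2 (squares) in bins of Hdac1 width in kb, with 95% Wilson intervals; right, width of the widest overlapping Hdac2 island against the width of the Hdac1 island (kb, log axes) for islands of 10 kb or more, with the line of equal width. On the left both shares are higher in wider bins, and on the right the 4 Hox islands lie far below the line while the gene-free and provisional islands above 20 kb lie on or above it.

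Of the 20 islands of 20 kb or more, 6 lay over developmental regulators, 3 over other named genes, 4 over provisional symbols and 7 in gene-free sequence. The last 2 classes thus held 11 of the 20, although they made up 222 of all 1377 broad islands. On chromosome 6 an island of 40.6 kb (chr6:47646601-47687200) over Gm40369, Gm40367, Gm40365, Gm36327, Gm40364 and Gm40363 was listed at 0 in both libraries, with the same outline in both, and a neighbour of 37.2 kb (chr6:47737001-47774200) at 0 in both had an Hdac2 island of 41.4 kb. On chromosome 4 the 19.4 kb island over 7 genes including Gm13275 and Gm13288 (chr4:88787601-88807000) had a value of 8.05e-269 for Hdac1 and 6.17e-142 for Hdac2, and its Hdac2 island was 19.2 kb wide. The neighbouring island with Gm13272 also held Ifnz, an interferon gene, and so counts as a named gene. Some provisional islands lay over a single gene that is not of these clusters, such as BC005537 (5.4 kb, Hdac2 over 63.0%) and 1810010H24Rik (6.2 kb, 64.5%), and 2310022B05Rik (6.0 kb) and Gm33099 (5.8 kb) had no Hdac2. Near-copies, promoters within 1 Mb that shared at least 50% of their 21-base words, were found at 6 of 9 provisional islands with a listed promoter. They were found at none of 106 developmental islands and at 10 of 647 islands over other named genes (1.55%). Of all islands with a promoter, 16 of 799 broad and 83 of 9726 narrower islands (0.853%) had them, and a wider island can hold more promoters. Counted by gene and not by island, the share was 3.13% of all 25748 genes with a promoter.

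Some Hdac1 islands lay under wider Hdac2 islands, and 5 of them lay in one stretch of chromosome 8 (chr8:19765601-20554800). These 5 broad Hdac1 islands of 28.0 to 88.2 kb, over Gm15319 and Gm40469 or over no gene, had Hdac1 values of 2.19e-29 to 6.21e-05. The Hdac2 islands at them were 48.0 to 185.6 kb wide, with values of 1.74e-238 to 5.94e-75. The widest of these Hdac2 islands (chr8:20257401-20443000) held 2 of the Hdac1 islands, of 49.4 and 88.2 kb. Elsewhere the island over Gm4302, Gm4303 and Gm4305 (chr10:100340801-100357800, 17.0 kb) had a value of 0.0174 for Hdac1 and an Hdac2 island of 42.0 kb at 3.52e-35. A gene-free island of 11.2 kb (chr8:55345801-55357000) had 0.0383 for Hdac1 and 3.86e-58 for Hdac2, and one of 5.8 kb (chr7:50943401-50949200) had 0.0799 and 8.59e-41. The values are comparable only within a library, and among Hdac1 islands that of Gm15319, 88.2 kb wide, stood at rank 27834 of 29695. The 28.0 kb island of the same stretch of chromosome 8 stood at rank 10031. The decile of the Hdac1 list with the highest values held 39 broad islands, of which 20 were gene-free, 6 provisional and 1 developmental (Tshz2).

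The widest gene-free island (chr8:123537201-123624600, 87.4 kb) was listed at 0 in both libraries with the same outline. It held 42 of the 65 annotated 5S ribosomal RNA genes and pseudogenes of chromosomes 1 to 19, a tandem array, and ended 0.544 kb from Gas8. The Fcgr3 island (chr1:171063601-171086400, 22.8 kb), counted above as a named gene, had the same outline in both libraries and held 15 tRNA genes. In all, 58 of 391 tRNA genes (14.8%) lay in 14 broad islands and 182 in narrower ones. The broad islands with 3 or more were gene-free in 5 of 8 cases, for example one of 8.2 kb with 7 tRNA genes (chr19:12005401-12013600), and 1 of the 8 was the developmental island over Hes7. The ribosomal RNA and tRNA genes were chosen after the values were seen. Genes of these kinds occur in many copies, and how alike the copies are was not measured here.

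On chromosome 6 a run of 3 gene-free islands of 65.2, 62.8 and 14.4 kb (chr6:114493201-114637600), between Hrh1 and Atg7, was separated by gaps of 1 kb, and Hdac2 covered 96.9%, 98.7% and 98.6% of them. Their Hdac1 values were 1.85e-84, 5.01e-57 and 2.56e-19, and the 2 Hdac2 islands over most of the run, of 98.4 and 41.6 kb, had 9.79e-274 and 1.50e-111. On chromosome 9 an island of 38 kb at the start of the mapped sequence (chr9:3000401-3038400), 297 kb from the nearest gene, was listed at 0 in both libraries, with an Hdac2 island of 38.6 kb. Neither holds an annotated gene, and the sequence of these stretches was not analysed here.

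Most of the 205 gene-free islands were unlike these. Their median width was 6.0 kb, 86 held a long noncoding RNA gene, 18 a pseudogene and 96 no annotated gene at all, and the median distance to the nearest protein-coding gene was 38.7 kb. The long noncoding genes with low-valued islands included Dleu2 (7.4 and 10.4 kb), Malat1 (12.8 kb, with 2 Hdac2 islands over 50%), Chaserr (9.2 kb, next to Chd2) and Snhg5 (5.0 kb), chosen in part after the values were seen. The lowest value of a gene-free island outside the repeated stretches was 6.96e-302, at 2810410L24Rik (chr11:120182201-120192000, 9.8 kb, Hdac2 over 91.8%). It was followed by 8.97e-225 in an island of 5.6 kb nearest to Cxxc5 and 6.59e-219 at Chaserr. Hdac2 overlapped 86.0% of islands with a long noncoding gene (77.2% to 91.8%) and 82.3% of those with no annotated gene (73.5% to 88.6%).

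For 21 of the 205 gene-free islands (10.2%) the nearest protein-coding gene was a developmental regulator, while such genes were 2.87% of all protein-coding genes. The lowest-valued of them was an island of 12.2 kb at 107 kb from Six2 (chr17:85795401-85807600), with a value of 2.83e-163 and Hdac2 over 45.9%. Others were 2 islands of 7.0 and 6.4 kb at 191 and 148 kb from Eya1, 2 of 6.6 and 5.4 kb at 71.8 and 46.8 kb from Gas1, and 2 of 8.6 and 5.0 kb at 338 and 490 kb from Sall1. Meis1 had one of 7.2 kb at 325 kb and one of 9.4 kb at 0.628 kb. Hdac2 was found at 17 of the 21 and not at those nearest to Irx5, Hoxa13, Nfib and Id1. These islands were chosen after the values were seen, developmental genes often stand alone in long gene-free stretches, and that share of sequence was not measured, so the 10.2% is a description.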

How the data were processed

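The files hold 2 deposited lists of islands, 1 for Hdac1 and 1 for Hdac2, from E16.5 nephron progenitor cells. SICER, which joins enriched windows into islands, is named beside BWA 0.7.5a, SAMtools 1.3.1, FastQC, bedtools 2.17 and the mm10 build in the submitters' processing notes. The sources used here give neither its settings nor the background library, nor say what was done with reads of several matches. A deposited island has a position and a value that may be a p-value or a q-value, as no header says. These values rank islands within a list only. The depth is unknown, and per the labels' protocols each library was amplified from 500 pg of DNA for 12 cycles or more.

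Widths count both end bases, and an overlap needs 1 bp. Genes, start sites and promoters came from RefSeq tables of GRCm38.p6, with start sites for 16456 of 20661 protein-coding genes and none on chromosome 18. Genes assigned to a broad island share bases with it, which need not include the start. Python 3.11.15, numpy 2.4.6 and pandas 2.3.3 were used, and counts of overlaps and covered bases equalled those of bedtools 2.31.1 on simulated data (29695 islands). The members, classes and gene lists were chosen with earlier results of these data known. Named genes are those of the 10 widest islands, of the 8 islands of lowest value in each class, of the kidney, deacetylase and Polycomb lists, and of the 5 widest developmental islands without Hdac2; others are named as chosen after the values were seen. A few genes of these lists are not reported here.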

Additional observations from a re-analysis of the deposited data

Results flagged for a closer look

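Chromosomes X and Y, which the choice of members left out, held 15 Hdac1 islands of 5 kb or more, 12 of 470 Hdac1 islands on X and 3 of 17 on Y. They are given here because they are signal outside the main measurement. Hdac2 overlapped 13 of the 15. On X it overlapped 10 of the 12, against 13.8% of all Hdac1 islands on X, and a wide island has more bases at which an overlap can occur. The lowest values on X were those of the 52.8 kb island over Mid1, listed at 0, an 8.0 kb island over Bcor, which encodes a corepressor of a Polycomb complex, and islands of 5.2 kb over Bcorl1 and over Cask, both without Hdac2. On Y the widest was a gene-free island of 60.4 kb, also listed at 0.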

How the results depend on the processing

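No paired analysis was possible because each antibody had 1 library. Of 42 alternatives 25 left a value within its interval or within 1.5 times, and 17 moved it. For the CG ratio that interval was the interquartile range, a spread of promoters and not an interval of the median. With a limit of 4 kb there were 2982 islands, 257 developmental, 2201 over other named genes, 37 provisional and 487 gene-free, and 78.6% had Hdac2. With 10 kb there were 96, in the same order 27, 46, 6 and 17, and 97.9% had Hdac2. The share with Hdac2 was 57.2% when 50% of the island had to be covered, 59.0% against the upper 50% of the Hdac2 list, 90.5% in the upper 50% of the Hdac1 list and 84.5% with islands closer than 1 kb merged. Counting a gene only where an end of it lies in the island made 523 islands gene-free in place of 205, since an island within a gene then counts as gene-free. Without repeated genes, tRNA genes and gene-free islands of 20 kb or more, chosen after seeing the data, 86.6% had Hdac2. With noncoding start sites counted, also added later, 74.8% of islands reached farther downstream. Depth is unknown, and without reads neither the separate Hdac2 islands over the Hox clusters nor the repeated stretches could be followed further. With 1 library each, target, antibody amount and depth cannot be told apart.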
